A study of Homo sapiens with 6 samples.

Results

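The clustered protocadherin locus on the long arm of chromosome 5 was examined in 6 PAR-CLIP site lists (in PAR-CLIP, proteins are crosslinked to RNA in living cells by light, and the bound fragments are sequenced). Members were sites on the plus strand whose midpoint lay between hg19 positions 140160000 and 140895000. That range holds the alpha cluster (140160000 to 140395000), the beta cluster (140425000 to 140630000) and the gamma cluster (140705000 to 140895000). The rule found 100 of the 464799 sites of the series. Of these, 21 lay in the alpha cluster, 0 in the beta cluster, 77 in the gamma cluster and 2 between the beta and gamma clusters.

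The proteins were FMR1, the fragile X protein, in isoform 1 (iso1) and isoform 7 (iso7), each as wild type and with I304N, an amino acid change in a KH domain (an RNA-contacting fold), and its paralogs FXR1 and FXR2 as wild type. Each carried a FLAG-HA tag and was expressed from a stable transgene in FlpIn T-REx HEK293, an established human embryonic kidney line. All 6 cultures received 1 µg/ml doxycycline and 100 µM 4-thiouridine for 16 h, so no list comes from uninduced cells. Each protein form had 1 library, so no value has a replicate error and no test between groups was made. Intervals are 95% intervals for counting error only. They treat sites as independent, which sites of 1 transcript are not, so they are too narrow by an unknown amount. How many clones a stable line represents is not given in the sources used here.

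Clustered protocadherins are cell-surface adhesion proteins, best known from neurons, where combinations of them give single cells a surface identity used in self-recognition. In the alpha and gamma clusters each gene starts with its own large variable exon, which is spliced to short constant exons shared by the whole cluster. Beta genes consist of essentially 1 exon and share no constant exons. In RefSeq (GRCh38.p14) the order along the chromosome is 15 protein-coding alpha genes from PCDHA1 to PCDHAC2, 16 beta genes from PCDHB1 to PCDHB15, and 22 gamma genes from PCDHGA1 to PCDHGC5. SLC25A2, a mitochondrial carrier gene, and TAF7, which encodes a subunit of the transcription factor TFIID, lie between PCDHB15 and PCDHGA1, and DIAPH1, a formin gene, follows PCDHGC5. The site lists are on hg19, so sites were not assigned to single genes, exons or UTRs, and no sequence is shown.

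The lists held between 9017 (FXR1) and 132219 (I304N iso1) sites. The locus had 34 of 121903 sites in wild-type iso1, 10 of 78495 in wild-type iso7, 25 of 132219 in I304N iso1 and 26 of 88644 in I304N iso7. FXR1 had 1 site and FXR2 had 4 of 34521. Scaled to 100000 sites per list, this was 27.9 sites (19.3 to 39.0) in wild-type iso1, 12.7 (6.11 to 23.4) in wild-type iso7, 18.9 (12.2 to 27.9) in I304N iso1 and 29.3 (19.2 to 43.0) in I304N iso7. The scaled values were 11.1 (0.281 to 61.8) in FXR1 and 11.6 (3.16 to 29.7) in FXR2. FXR1 therefore gives almost no information on this locus, since a count of 0 in its list still allows 33.3 sites per 100000. Fewer transcripts in a line and fewer contacts per transcript cannot be told apart in these lists, because RNA levels were not analysed here.

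**Figure D1:**
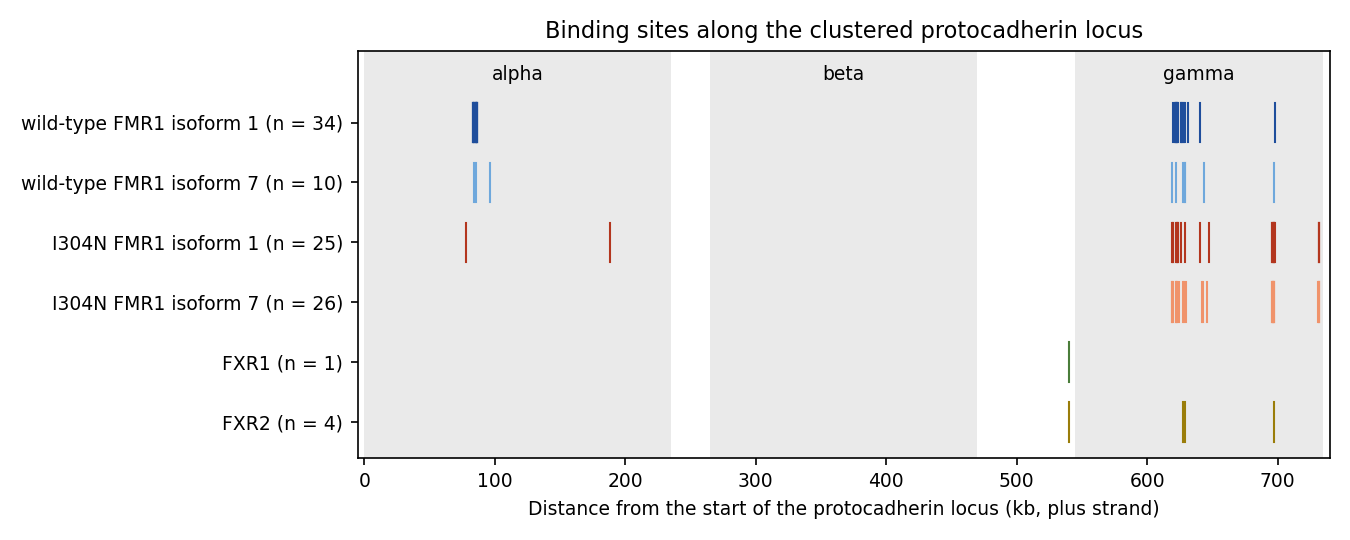
Positions of the 100 plus-strand sites by library, as distance in kb from the start of the locus; each tick is 1 site and grey shading marks the alpha, beta and gamma clusters. Sites gather in a few short stretches of the alpha and gamma clusters, and the beta cluster is empty in all 6 lists.

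The beta cluster, 205 kb long, had no plus-strand site in any of the 6 lists. How reads that match several near-identical exons were handled is not given in the sources used here, and its part in the empty and sparse stretches was not tested. A count of 0 allows up to 3 sites, which is 0.00227% of the list in I304N iso1 and 0.0333% in FXR1, the widest limit. On the minus strand of the beta cluster there were 4 sites, all within positions 140501810 to 140501825, 1 each in wild-type iso1, wild-type iso7, I304N iso1 and FXR1. The 30 kb between the alpha and beta clusters had no site on either strand.

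Sites less than 5 kb apart were joined into 9 stretches, numbered along the plus strand. The 5 kb limit was chosen after the positions had been seen, so counts per stretch describe the pattern and were not tested. Intervals given for stretches cover counting error and do not allow for this choice. Of the 9, 5 stretches held 7 or more sites each: stretch 2 in the alpha cluster and stretches 6 to 9 in the gamma cluster. The other 4 held 5 sites in all. Stretches 1, 3 and 4 were single alpha sites, at 140237669 to 140237683 and 140348383 to 140348401 in I304N iso1 and at 140256060 to 140256080 in wild-type iso7.

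The alpha cluster was bound mainly in the wild-type libraries, with 16 sites in wild-type iso1, 3 in wild-type iso7, 2 in I304N iso1 and none in the other lists. Stretch 2 ran over 3478 nt, from 140243186 to 140246663, and held 16 sites of wild-type iso1 and 2 of wild-type iso7. Neither I304N library and neither paralog had a site there. The sites of wild-type iso1 were spread over the whole stretch, the first at 140243186 to 140243197 and the last at 140246639 to 140246663. Both sites of wild-type iso7, at 140243976 to 140243994 and 140245432 to 140245452, overlapped sites of wild-type iso1.

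For I304N iso1 against wild-type iso1 in stretch 2, with 0 sites against 16, the exact upper limit of the scaled ratio was 0.239. Over the whole alpha cluster the counts were 2 and 16, a ratio of scaled counts of 0.115 (0.0129 to 0.490). For iso7 the counts in the cluster were 0 with I304N and 3 in the wild type, too few for a ratio. Between the wild-type isoforms, iso7 had 0.194 times the scaled density of iso1 in stretch 2 (0.0217 to 0.826). Against wild-type iso1, the upper limit of the ratio there was 0.916 for FXR2 and 3.51 for FXR1, so the FXR1 list allows any direction. The bounds of stretch 2 were drawn from these same sites after their positions had been seen. Its limits do not allow for that choice, so they cannot decide whether the libraries differ there.

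All of stretch 2 falls in the 10 kb window from 140240001 to 140250000. Among 10 kb windows of the whole genome, 1955 had at least 16 sites in wild-type iso1. Of those, 21 (1.07%) had no site in I304N iso1 and 16 (0.818%) had none in either I304N library, this window included. The window was picked for this pattern, so its place among these few is a description.

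The gamma cluster was bound in every FMR1 library and in FXR2, with 18 sites in wild-type iso1, 7 in wild-type iso7, 23 in I304N iso1, 26 in I304N iso7 and 3 in FXR2. Its share of the sites of the locus was 52.9% (35.1 to 70.2) in wild-type iso1, 70.0% (34.8 to 93.3) in wild-type iso7, 92.0% (74.0 to 99.0) in I304N iso1 and 100% (86.8 to 100) in I304N iso7. The scaled ratio of I304N to wild type over the cluster was 1.18 in iso1 (0.608 to 2.32) and 3.29 in iso7 (1.39 to 8.97). In iso1 the interval includes 1, and in iso7 it lies above it. Both treat the sites of 1 library as independent, which they are not, so the iso7 interval gives no replicated difference.

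Within the gamma cluster the site counts of the libraries varied between stretches, which were drawn after the positions had been seen. Stretch 6, 12486 nt from 140779104 to 140791589, was the largest, with 16 sites in wild-type iso1, 5 in wild-type iso7, 10 in I304N iso1, 11 in I304N iso7 and 2 in FXR2. The scaled ratio of I304N to wild type there was 0.576 (0.234 to 1.35) in iso1 and 1.95 (0.624 to 7.15) in iso7, and both intervals include 1. Several of its positions were shared between libraries, and overlap shares beside those of the whole lists are given further below. Wild-type iso1 had a site at 140779881 to 140779903 and I304N iso1 at 140779884 to 140779904, and the same pair overlapped again at 140782996 to 140783021 and at 140783492 to 140783525. The I304N isoforms overlapped each other at 140779456 to 140779480 and 140779610 to 140779640. Wild-type iso7 and I304N iso7 had a site with both ends identical at 140779104 to 140779128. Farther along, the sites of wild-type iso1 at 140786244 to 140786260, 140786296 to 140786315, 140787090 to 140787099 and 140788253 to 140788262 met none of another library.

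Stretch 7, from 140800696 to 140807348, was sparse, with 1 site in each wild-type FMR1 library, 2 in I304N iso1 and 3 in I304N iso7. The site of wild-type iso1, at 140800696 to 140800717, overlapped one of I304N iso1 at 140800703 to 140800718, and the other 5 met none.

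The last part of the gamma cluster held sites mainly of I304N. Stretch 8, 2253 nt from 140855816 to 140858068, had 8 sites in each I304N library, 1 in each wild-type FMR1 library and 1 in FXR2. Stretch 9, 849 nt from 140890986 to 140891834 and the last before the end of the cluster, had 3 sites in I304N iso1, 4 in I304N iso7 and none in the other 4 lists. In stretch 8 alone the scaled ratio of I304N to wild type was 7.38 in iso1 (0.989 to 327) and 7.08 in iso7 (0.950 to 314), and both intervals include 1. Stretch 9 alone had no wild-type site, and the lower limit of its ratio in iso7 was 0.585. Added up, which was chosen after the counts had been seen, the pair of stretches held 11 sites in I304N iso1 against 1 in wild-type iso1, which is 10.1 times as many after scaling (1.47 to 437). In iso7 they held 12 against 1, 10.6 times as many (1.57 to 454). Stretch 2 had the opposite makeup, with wild-type sites only. The intervals for the sum of stretches 8 and 9 come from the same counts that led to the sum. They do not allow for that choice, so lying above 1 does not decide whether I304N differs from wild type there.

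**Figure D2:**
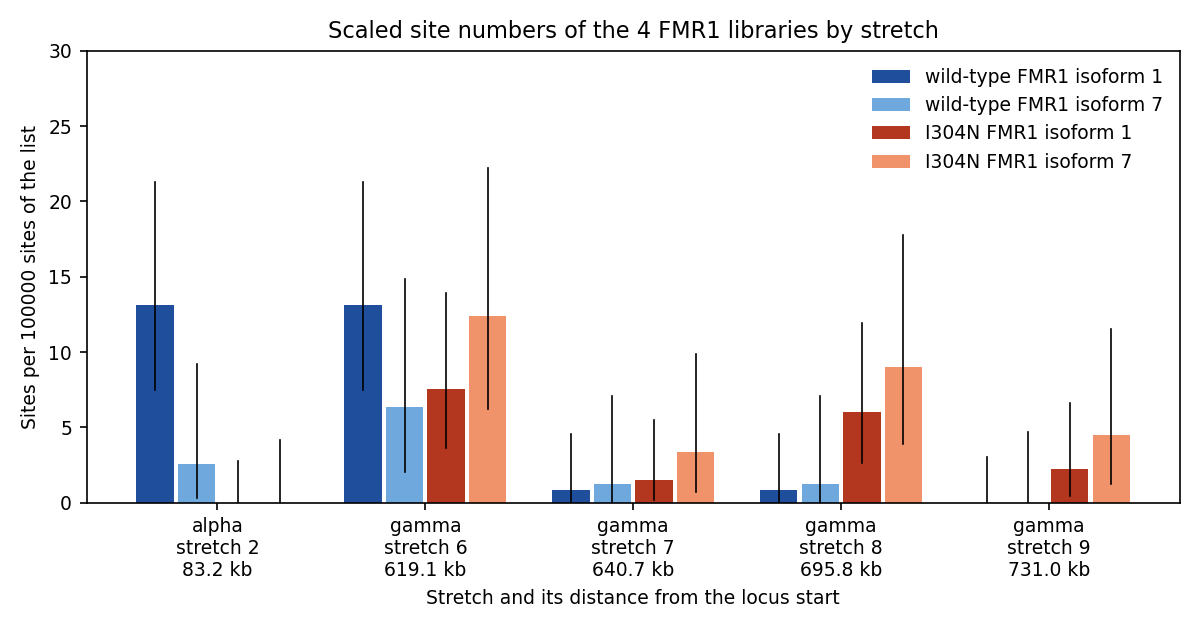
Sites per 100000 sites of the list in the 5 stretches with at least 5 sites, for the 4 FMR1 libraries; bars are scaled counts of 1 library each and lines are exact Poisson 95% intervals, for counting error only. Stretch 2 of the alpha cluster has bars for the wild type only, stretch 6 has bars for all 4 libraries, and stretches 8 and 9 are highest in the I304N libraries. The stretches were drawn from these same sites, which the intervals do not allow for.

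The I304N libraries also coincided at single positions in stretches 8 and 9, as they did at many positions of the whole lists. Over those lists, 50.0% of I304N iso1 sites were overlapped by I304N iso7 and 75.9% of I304N iso7 sites by I304N iso1. In the locus the shares were 40% and 38.5%, and they were not computed for these stretches alone. In stretch 8, I304N iso1 and I304N iso7 overlapped at 4 positions: 140855953 to 140855978, 140856823 to 140856851, 140857389 to 140857412 and 140857455 to 140857481. At the third, I304N iso1 had a site at 140857389 to 140857411 and I304N iso7 at 140857389 to 140857412, with the same start. A site at 140857433 to 140857451 had both ends identical in I304N iso1 and FXR2. In stretch 9, sites at 140891535 to 140891555 and 140891533 to 140891561 overlapped between isoforms 1 and 7, as did sites at 140891713 to 140891726 and 140891706 to 140891735. The lone wild-type sites of stretch 8, at 140857803 to 140857823 in iso1 and 140857492 to 140857501 in iso7, met no site of another library.

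**Figure D3:**
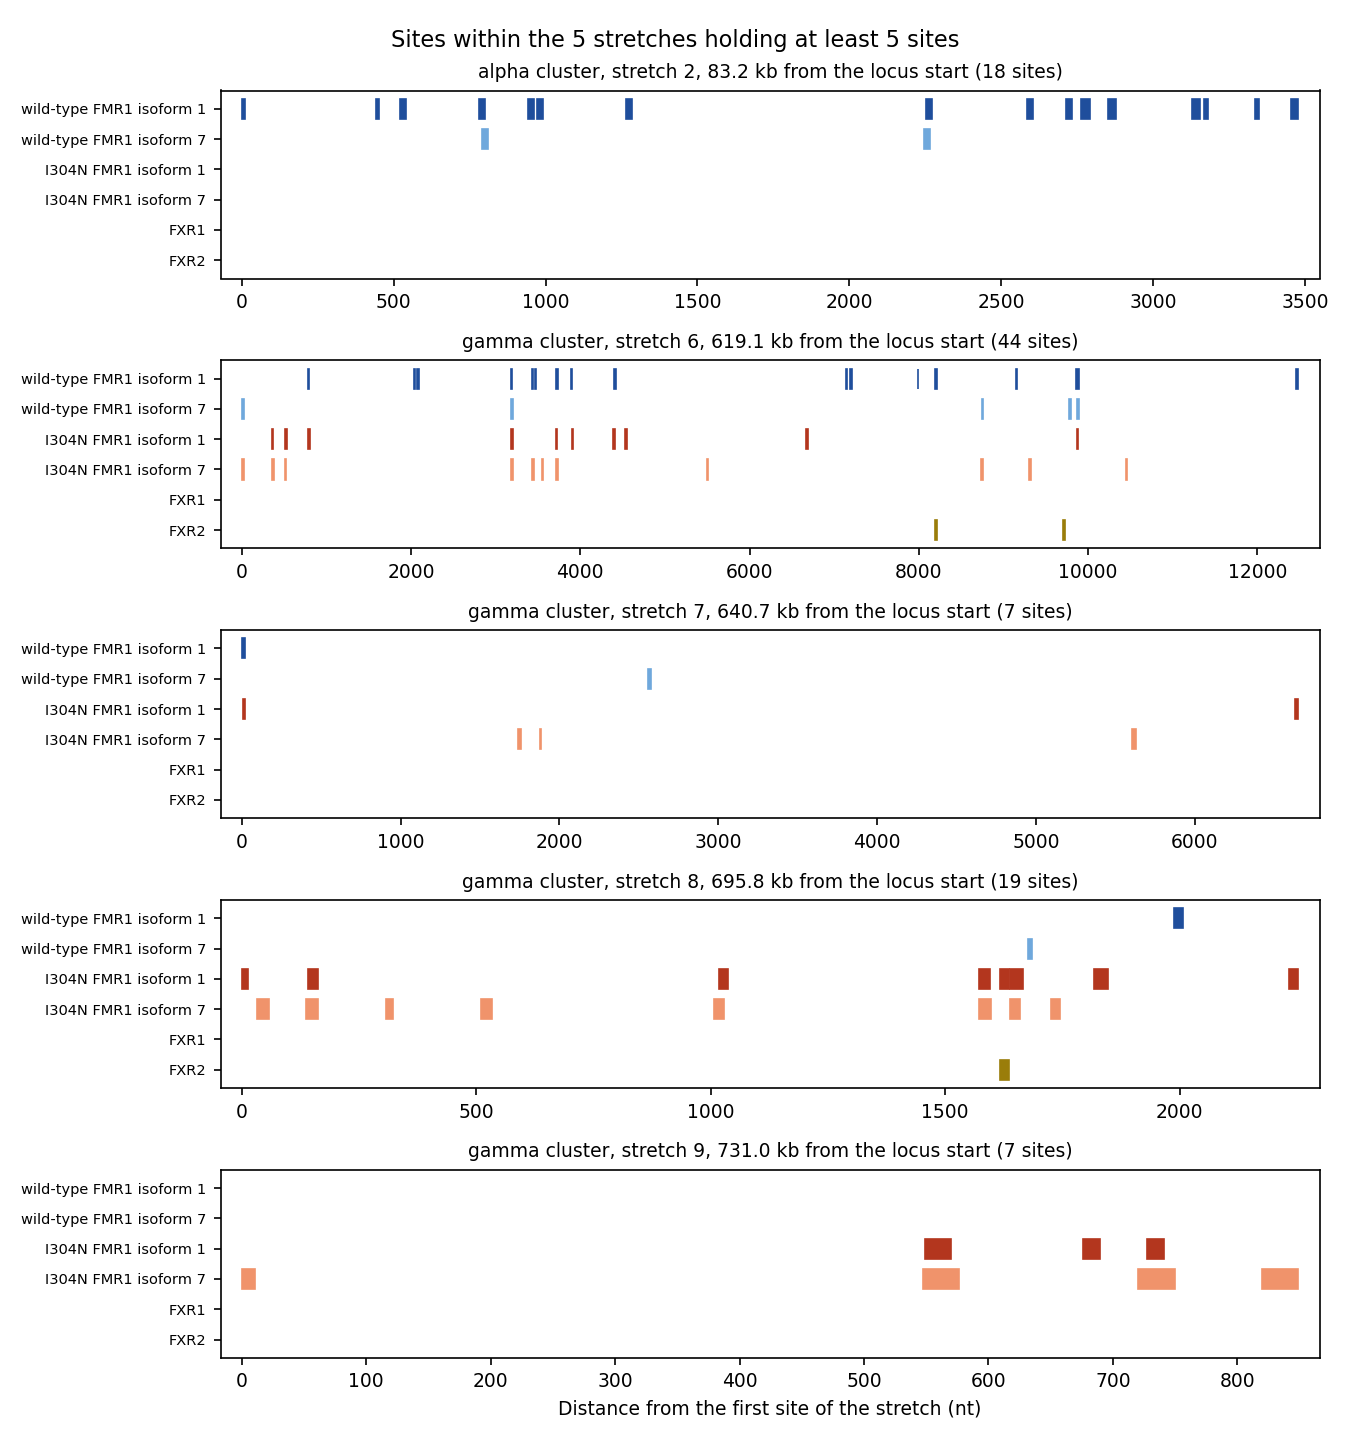
Sites of each library within the 5 stretches with at least 5 sites, as distance in nt from the first site of the stretch; boxes are drawn to scale with a thin outline, and each panel has its own scale. The wild-type sites of stretch 2 are spread along 3478 nt, and the sites of stretches 8 and 9 are mostly those of the I304N libraries.

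Windows of 50 kb place these differences among those of the genome. For I304N against wild type in iso1, 3 plus-strand windows of the locus were dense enough to compare (a mean of at least 2 scaled sites). Of them, 1 was at least 2-fold higher with I304N, where 29.9% of 7869 windows genome-wide were, and 1 was at least 2-fold lower, where 20.4% were. The higher one was 140850001 to 140900000 (log2 ratio 2.36, with a pseudocount of 1) and the lower one 140200001 to 140250000 (-3.01). In iso7, 1 of 3 windows was at least 2-fold higher with I304N, against 21.4% of 7513, and 0 of 3 were lower, against 20.1%. It was again 140850001 to 140900000 (log2 ratio 2.68).

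Changes of 2-fold or more were thus common in the genome, and the share of windows with changes as large as those of the locus was not computed. In 10 kb windows, 140850001 to 140860000 had log2 ratios of 1.95 in iso1 and 2.14 in iso7. It was 1 of 2 locus windows comparable in both isoforms, and genome-wide 12.5% of 8231 windows were at least 2-fold higher with I304N in both. The other was 140780001 to 140790000 in stretch 6, with 14 sites in wild-type iso1, 4 in wild-type iso7, 7 in I304N iso1, 8 in I304N iso7 and 2 in FXR2. Its log2 ratios were -0.99 in iso1 and 0.72 in iso7, opposite in sign and under 2-fold in both. The alpha window 140240001 to 140250000 had log2 ratios of -3.82 and -1.83, the second resting on 2 sites against 0 and below the density limit for iso7. None of the 2 locus windows was at least 2-fold lower in both, where 5.75% were.

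Between isoforms in the wild type, 1 of 2 windows of 50 kb was at least 2-fold lower in iso7, against 22.4% of 7380 windows, and 0 were higher, against 21.3%. The lower window was 140200001 to 140250000 (log2 ratio -1.99). With I304N, 0 of 3 windows were at least 2-fold higher in iso7, where 5.50% of 7947 were, and 0 were lower, where 16.3% were. Over the whole locus, iso7 had 0.457 times the scaled density of iso1 in the wild type (0.201 to 0.946) and 1.55 times with I304N (0.861 to 2.80).

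The paralogs had few sites on the plus strand of the locus. FXR2 had sites in the gamma cluster only in stretches 6 and 8, and the scaled ratio of the cluster to wild-type iso1 was 0.589 (0.111 to 2.02), which includes 1. The 2 sites between the beta and gamma clusters were a single position, 140700354 to 140700367, found in FXR1 and FXR2 with both ends identical and in no FMR1 library. It was the FXR1 list's lone site in the locus.

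That position lies just beyond a dense stretch on the opposite strand. On the minus strand, positions 140698076 to 140700321, between the beta and gamma clusters, held 27 sites in wild-type iso1, 13 in wild-type iso7, 25 in I304N iso1, 22 in I304N iso7, 2 in FXR1 and 9 in FXR2. Scaled, these were 22.1, 16.6, 18.9, 24.8, 22.2 and 26.1 per 100000 sites. The value of FXR1 rests on 2 sites. In the 4 FMR1 libraries this stretch ran from 16.6 to 24.8, while stretch 2 of the alpha cluster ran from 0 to 13.1. The minus strand of the alpha cluster was empty in all 6 lists, and that of the gamma cluster had 20 sites, all between 140894636 and 140894997, where the range examined ends.

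Median site widths in the locus and in the whole list were 20 and 24 nt in wild-type iso1 and 21 and 21 nt in wild-type iso7. They were 19 and 23 nt in I304N iso1 and 21.5 and 24 nt in I304N iso7. The widest of the 100 was 31 nt and the narrowest 10 nt, with a mean of 19.7 nt (SD 5.29 across sites). In the whole lists, 24.8% of wild-type iso1, 22.8% of I304N iso1, 22.9% of I304N iso7 and 11.1% of wild-type iso7 sites were wider than 31 nt. For FXR1 and FXR2 the shares were 0.488% and 2.27%. The 31 nt limit was taken from the locus sites, so none of them could exceed it. Of the 100 sites, 2 carried the authors' repeat flag, 1 in wild-type iso1 and 1 in FXR2, and they overlapped each other in stretch 6.

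Positions recurred less in the locus than in the lists as a whole in some pairs of libraries. Joining touching sites gave 73 regions in the locus, of which 50 (68.5%, 56.6 to 78.9) were found in 1 library, against 55.3% of 237434 regions genome-wide. Genome-wide regions were made from sites of any width. By cluster the share was 89.5% (66.9 to 98.7) of 19 alpha regions and 62.3% (47.9 to 75.2) of 53 gamma regions. The gamma interval includes the genome-wide share. No region of the locus was found in 5 or 6 libraries, where 2.84% and 0.607% of regions genome-wide were. The upper limit of each count of 0 was 4.93%, so both are within counting error. Regions in 3 libraries made up 2.74% (0.334 to 9.55) in the locus, against 12.3% genome-wide. Those in 4 made up 1.37% (0.0347 to 7.40), against 7.67%. In the gamma cluster alone the shares in 3 and 4 libraries were 3.77% (0.460 to 13.0) and 1.89% (0.0478 to 10.1). Both of these intervals include the genome-wide shares. The region with most libraries was 140782281 to 140782304 in stretch 6, found in all 4 FMR1 libraries. There wild-type and I304N iso7 had sites with both ends identical. Regions at 140782815 to 140782840 and 140788965 to 140789000, both in stretch 6, were found in 3 FMR1 libraries. These 3 were singled out after their values were seen.

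Of the sites in the locus, 20.6% (8.70 to 37.9) of wild-type iso1 were overlapped by I304N iso1, against 44.6% in the whole list and 37.7% of its sites up to 31 nt. By cluster this was 0 of 16 in alpha and 38.9% (17.3 to 64.3) in gamma, an interval that includes both whole-list shares. For I304N iso7 by I304N iso1 the share was 38.5% (20.2 to 59.4), against 75.9% and 70.3%. For I304N iso7 by wild-type iso7 it was 11.5% (2.45 to 30.2), against 41.9% and 34.3%. In these last pairs the interval lies below both genome-wide shares. For I304N iso1 by I304N iso7 the share was 40% (21.1 to 61.3), against 50.0% and 39.9%, within counting error. Sites of 1 transcript are not independent, so these intervals are too narrow by an unknown amount.

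**Figure D4:**
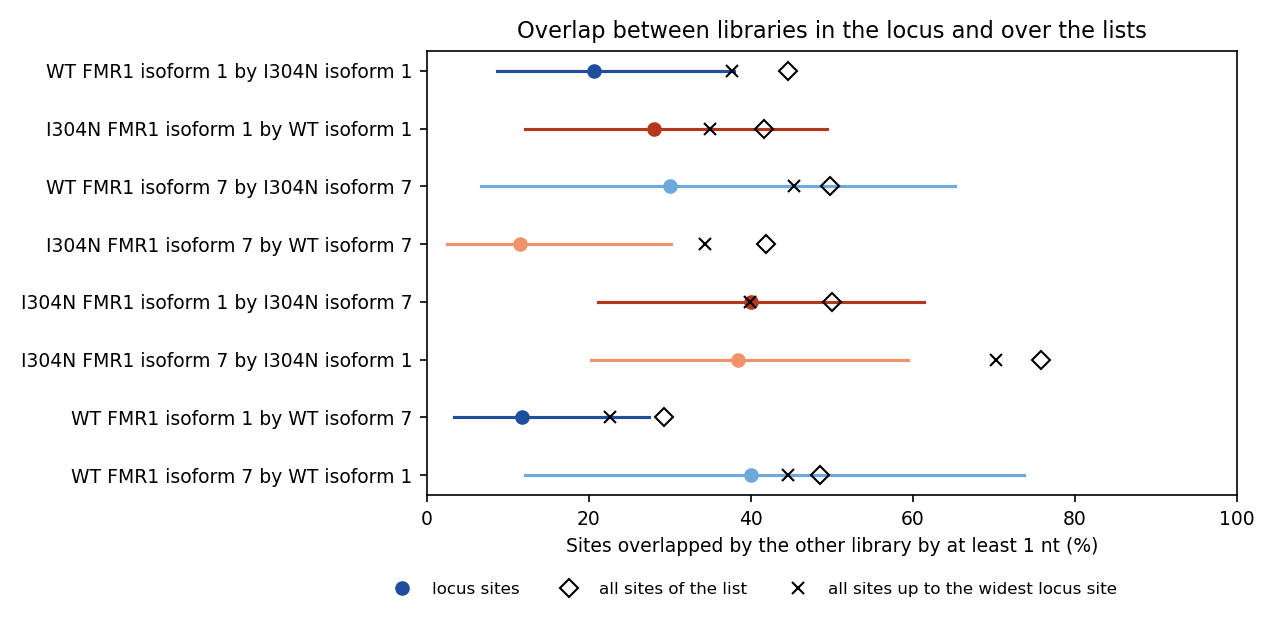
Share of sites sharing 1 nt or more, strand included, with a site of another FMR1 library, for 8 ordered pairs; filled points with lines are sites of the locus with exact 95% intervals, open diamonds all sites of the list, and crosses all sites up to 31 nt. The locus lies below both genome-wide shares by more than counting error for I304N iso7 by wild-type iso7 and by I304N iso1.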

How the data were processed

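PAR-CLIP lists of 6 libraries were used, grouped by the immunoprecipitated protein in the labels. Per the submitters' processing notes, the aligner was Bowtie 0.12.7 and the build hg19. Which program called sites, with what thresholds, and how it handled reads that match several near-identical protocadherin exons is not given in the sources used here, and the lists hold no read number. The deposited score is a flag, 1000 outside and 0 inside repeats, per the file headers, so every value counts sites. The annotation at hand is on GRCh38 and was used for gene names and order only. The planned counts by gene and by sequence element were not made.

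Shares carry exact Clopper-Pearson intervals and ratios of shares exact conditional ones (Python 3.11.15, SciPy 1.17.1). Sites were scaled to 100000 per list. Windows needed a mean of 2 scaled sites in the libraries compared, and log2 ratios a pseudocount of 1. Where a share was 0, its limit was that of 3 sites. By plan, regions in 5 or 6 libraries were to be named, but the locus had none. Also planned were the 3 densest 10 kb windows per cluster and the largest I304N gains and losses in both isoforms. Planned windows resting on few sites are not described as windows. Other positions were named after their values had been seen. Window calculations were run on simulated data with large changes in dense windows. That run does not show how they behave in windows as sparse as most of the locus. The members and lists were chosen with earlier results of these data known. The alternatives tried are given at the end.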

Additional observations from a re-analysis of the deposited data

Results flagged for a closer look

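The I304N to wild-type ratio of the locus was below 1 in iso1 and above 1 in iso7. In iso1 the scaled ratio of I304N to wild type was 0.678 (0.388 to 1.17), an interval that includes 1, and in iso7 it was 2.30 (1.07 to 5.35), with 1 library for each form. The ratio of these ratios was 3.40 (1.39 to 8.30, normal approximation on the log scale, counting error only). The difference was not tested across replicates. In the gamma cluster alone both ratios were above 1 (1.18 and 3.29), and the ratio between them was 2.79 (0.989 to 7.88).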

How the results depend on the processing

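Recomputed were 42 ratios of the locus between libraries, 12 shares of the gamma cluster and 36 overlap shares. All stayed within the counting interval of the reported value, but many of these intervals are wide, so this is a weak check. With overlap of at least 50% of both sites, the share of wild-type iso1 by I304N iso1 fell from 20.6% to 11.8%. That of I304N iso1 by wild-type iso1 fell from 28% to 16%. Whole-list shares were not recomputed at that setting. As shares of plus-strand sites of chromosome 5, the locus held 0.729% in wild-type iso1, 0.375% in wild-type iso7, 0.631% in I304N iso1, 1.11% in I304N iso7, 0.239% in FXR1 and 0.275% in FXR2. By nucleotides covered, the share of wild-type iso1 was 0.0181% against 0.0279% by sites. Joining sites within 10 nt gave 2 regions in 4 libraries in place of 1. Joining stretches within 2 kb, added after seeing the data, gave 10 stretches.

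Genome-wide numbers of 50 kb windows depended on the settings. For I304N in iso1, windows at least 2-fold higher numbered 2354, and 1369 with a pseudocount of 5, 4336 with no filter and 1502 with a filter of 4, and those lower numbered 1603, and 871 with a pseudocount of 5. For I304N in iso7, 1609 higher windows became 851, 3785 with no filter, and 1509 lower ones became 778, 8215 and 913 with the pseudocount of 5, no filter and the filter of 4. For iso7 against iso1 in the wild type, 1574 higher windows became 746, 8232 and 992 in the same order, and 1651 lower ones became 925 with the pseudocount of 5. With I304N, 437 higher windows became 121, 1334 and 282, or 778 with windows of 10 kb, and 1294 lower ones became 433, 2858 and 692. In the locus, higher windows with I304N in iso7 were 2 with a pseudocount of 0.5 and 2 with windows of 10 kb, in place of 1. Lower ones were 2 with no filter, in place of 0. For wild-type iso7 against 1, 1 window was higher with no filter in place of 0, and 2 were lower with windows of 10 kb in place of 1. Filters change how many windows are compared; the cause of the other shifts was not tested.

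No paired analysis was possible because the labels give the libraries no shared replicate numbers, with 1 library for each protein form. A fit with isoform as a pairing of wild type and I304N was not made. The limits are the small numbers (100 sites, of which FXR1 and FXR2 have 5) and the lack of reads per site, replicates and RNA levels; they were not ranked.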

Other observations

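For pairs of libraries in the gamma cluster, sites with one of the other library within 1000 nt were counted beside those overlapped. An overlapped site also counts as within 1000 nt, so the count within 1000 nt cannot be the smaller. Of the 18 sites of wild-type iso1, 7 were overlapped by I304N iso1 and 13 (72.2%) had a site of that library within 1000 nt, against 87.1% over the whole list. All 7 sites of wild-type iso7 had a site of I304N iso7 within 1000 nt, against 74.4% over the whole list, and 3 were overlapped by one. Of the 23 sites of I304N iso1, 20 (87.0%) had a site of I304N iso7 within 1000 nt, against 80.7% over the whole list, and 10 were overlapped. In the alpha cluster none of the 16 sites of wild-type iso1 had an I304N site of either isoform within 1000 nt, where 87.1% of the whole list had one of I304N iso1 and 72.0% one of I304N iso7. All 16 lay in stretch 2, which held no I304N site, and other stretches lie at least 5 kb away. That none had one therefore follows from the counts of stretch 2, which was drawn from these same sites. The 16 are neighbouring sites of 1 library and are not independent. A site of wild-type iso7 lay within 1000 nt of 14 of the 16 (87.5%), against 79.3% over the whole list. These 14 rest on the 2 sites of wild-type iso7 in stretch 2. Overlapped by wild-type iso7 were 2 of the 16 (12.5%), against 29.3% over the whole list.

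The spacing of sites within 1 library depended on the measure. The median distance to the nearest site of the same library and strand was 105.5 nt in wild-type iso1 against 36 nt in its whole list. It was 151 against 46 nt in I304N iso1 and 140.5 against 54 nt in I304N iso7. In wild-type iso7, 8 of the 10 sites had no other site of the library within 1000 nt, against 28.7% of its whole list. That share was 11.8% against 12.8% in wild-type iso1, 24.0% against 15.4% in I304N iso1 and 11.5% against 16.3% in I304N iso7.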
